A study of Ailuropoda melanoleuca with 25 samples.

Results

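A set of 56 gene models stood higher at day 24 of stage I of giant panda fibroblast reprogramming than in 6 other groups of the study, which cover fibroblasts, earlier and later reprogramming days and stem cells. Over the 5 groups that were not used to choose them, 2 of the 56 were higher elsewhere. High day 24 levels served to choose the members, so this small number is set in part by the choice. The members were chosen from the measured levels themselves. Levels in CPM (a model's estimated count divided by the library's total and multiplied by 1000000) were averaged by group. A model was taken when stage I D24 stood at 10 CPM or more and at 4 times or more the mean of each of 6 other groups. Of the 22924 gene models in the files, 8789 stood at 10 CPM or more at stage I D24, and 56 of these (0.637%) met the rule.

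The study made giant panda (Ailuropoda melanoleuca) induced pluripotent stem cells (GPiPSC) from primary fibroblasts (PF) with episomal vectors, which do not integrate into the genome, and sequenced RNA from 25 libraries in 12 groups. The rule uses 7 groups with 15 libraries: LB PF, XR PF, stage I D8, stage I D24, stage II D8 and XR GPiPSC with 2 libraries each and LB GPiPSC with 3. It does not use control D16, A83-01 D16, BACL LB GPiPSC, BACL-CHIR99021 and BACL control, with 2 libraries each. A83-01 inhibits the type I receptor of the TGF-beta pathway, and CHIR99021 inhibits the kinase GSK-3, which keeps WNT signalling in check. D is the day given in the titles. The title BACL-CHIR99021 can mean CHIR99021 added or CHIR99021 left out, and the titles do not say which. Left unexplained in the labels are the abbreviations LB, XR and BACL, what the media of stages I and II held, or which fibroblasts gave the stage and day 16 samples. They give every library the source primary fibroblast cells, GPiPSC included, and they do not say that day 16 belongs to the same cultures as days 8 and 24.

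Reprogramming factors silence the fibroblast program and switch on the pluripotency network over weeks. On the way, cells pass through intermediate states in which genes can be on that are active neither in the starting fibroblasts nor in the final stem cells, and many cells in the dish never complete the change. A whole dish is measured here, so more cells with a transcript and more transcript per cell cannot be told apart. The files name gene models only by assembly identifiers such as evm.model.HIC_ASM_0.188, and 0 of them occur in the RefSeq gene table of assembly ASM200744v3. The members therefore have no gene names, functions, sequences or base coordinates here, and no marker or pathway list could be matched to them. The label of each group could not be set against marker genes for the same reason. In an identifier, the scaffold comes first and the model's number along it second, so evm.model.HIC_ASM_0.188 is number 188 on scaffold HIC_ASM_0. Reads that similar models share cannot be told apart in these tables.

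Total estimated counts ran from 8627983 to 14890260 per library, and 3 counts correspond to 0.202 to 0.348 CPM. The day 24 libraries were among those that differed most within a group, and the chi-square of their counts per degree of freedom was 116.5. It was 118 for LB PF, 119 for XR PF and 1.20 to 37.5 for the other pairs. Separate cultures are not stated for replicates, so the spread behind the p-values is that of these libraries and may be technical.

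The members held 0.617% of all counts in stage I D24 replicate 1 and 0.530% in replicate 2. Their share was 0.0306% and 0.0276% at stage I D8 and 0.0160% and 0.0173% at stage II D8. In the 4 PF libraries it ran from 0.0155% to 0.0376%, and in the 5 GPiPSC libraries from 0.00536% to 0.0102%. These levels follow from the rule and carry no test. In the groups that the rule did not use, the share was 0.0881% and 0.0823% in control D16, 0.0888% and 0.107% in A83-01 D16, and 0.0111% to 0.0189% in the 6 BACL libraries. The day 16 libraries thus lay above those of PF, stage I D8 and stage II D8 and below those of day 24. The rule itself set the levels of these other groups low or high. Of the summed CPM, evm.model.HIC_ASM_8.1474 alone held 405.5 of 881 and 375 of 823 in control D16. In A83-01 D16 it held 324 of 888 and 527 of 1069. The 5 members with the highest day 24 levels made up 52.8% of the summed day 24 level, and evm.model.HIC_ASM_0.188 alone made up 22.4%.

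**Figure D1:**
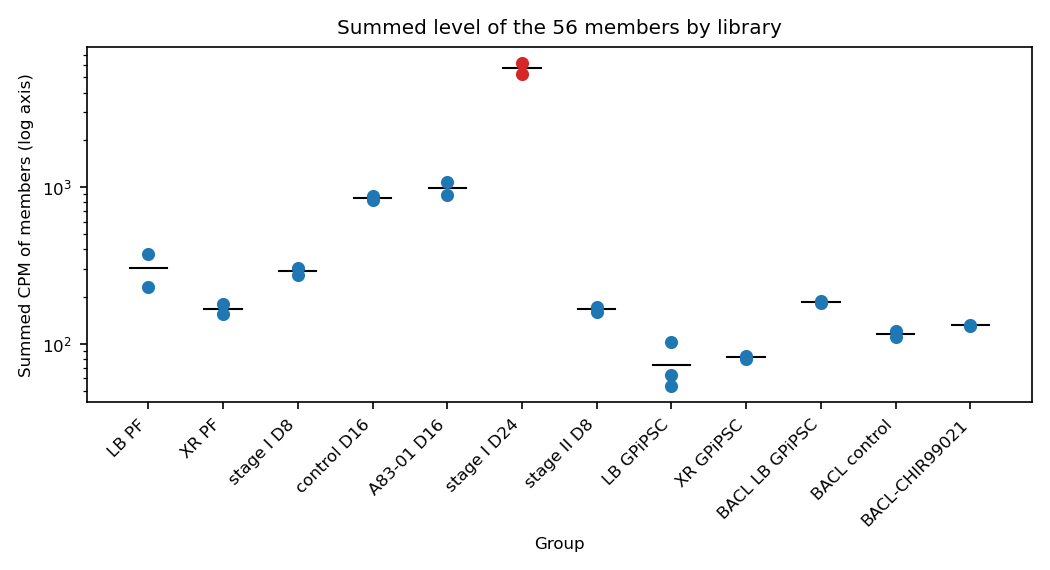
Summed CPM of the 56 members (vertical log axis) in each library (points), by group, with the group mean as a bar. Stage I D24, in red, stands at 5736 ± 616 (SD, n = 2), control D16 at 852 ± 41.1 and A83-01 D16 at 978 ± 128, and every other group mean is at 302 or lower. Of the day 16 means, evm.model.HIC_ASM_8.1474 alone holds 390 CPM in control D16 and 425 CPM in A83-01 D16.

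Day 24 levels ran from 10.6 to 1286 CPM with a median of 37.8 CPM. They were at 100 CPM or more in 14 members, at 50 or more in 23 and at 20 or more in 39. The median over the members was 1.51 CPM at stage I D8, 0.799 at stage II D8, 1.19 in LB PF, 0.765 in XR PF, 0.484 in LB GPiPSC and 0.565 in XR GPiPSC, where all models had medians of 1.76 to 4.48 CPM in these groups. The ratio of day 24 to the highest of the other 6 group means had a median of 8.66 over the 55 members for which that mean was above 0. Counting the 1 member without counts in those groups, it was 8 or more in 33 members and 20 or more in 14.

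The highest level, in evm.model.HIC_ASM_0.188, was 1403 CPM in day 24 replicate 1 and 1168 in replicate 2. The same model stood at 19.6 and 15.6 CPM at stage I D8, at 2.44 in both stage II D8 libraries, at 13.7 and 6.26 in LB PF and at 5.27 and 3.63 in XR PF. In GPiPSC it stood at 3.96, 14.5 and 2.29 CPM in the LB libraries and at 0.160 and 0.229 in the XR libraries. Both day 24 libraries were far above all others. The second, evm.model.HIC_ASM_12.1153, had another pattern, because it was present throughout the fibroblast side of the course. It stood at 188 and 22.3 CPM in LB PF, 69.5 and 78.0 in XR PF, 56.3 and 51.7 at stage I D8, 380.3 and 701 at day 24, then 47.6 and 41.3 in stage II D8. In the 5 GPiPSC libraries it was at 0.862 CPM or less.

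The largest ratio with counts behind it was that of evm.model.HIC_ASM_10.1755, at 273 times the mean of LB PF. Its levels were 649.7 and 312 CPM at day 24, 0.734 and 2.78 in LB PF, 0.545 and 0.288 at stage I D8, and 0.370 and 0.144 at stage II D8. The next, evm.model.HIC_ASM_17.555, with the longest coding length of the members (4254 bases), had 17.7 and 15.97 CPM at day 24. It was listed at 0 in all PF, stage I D8 and GPiPSC libraries and at 0 and 0.287 CPM at stage II D8. One member, evm.model.HIC_ASM_9.549, had no counts in any of the 13 libraries of the other 6 groups and 30.9 and 28.04 CPM at day 24. Against a floor of 3 counts per library this is at least 99.5-fold higher.

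**Figure D2:**
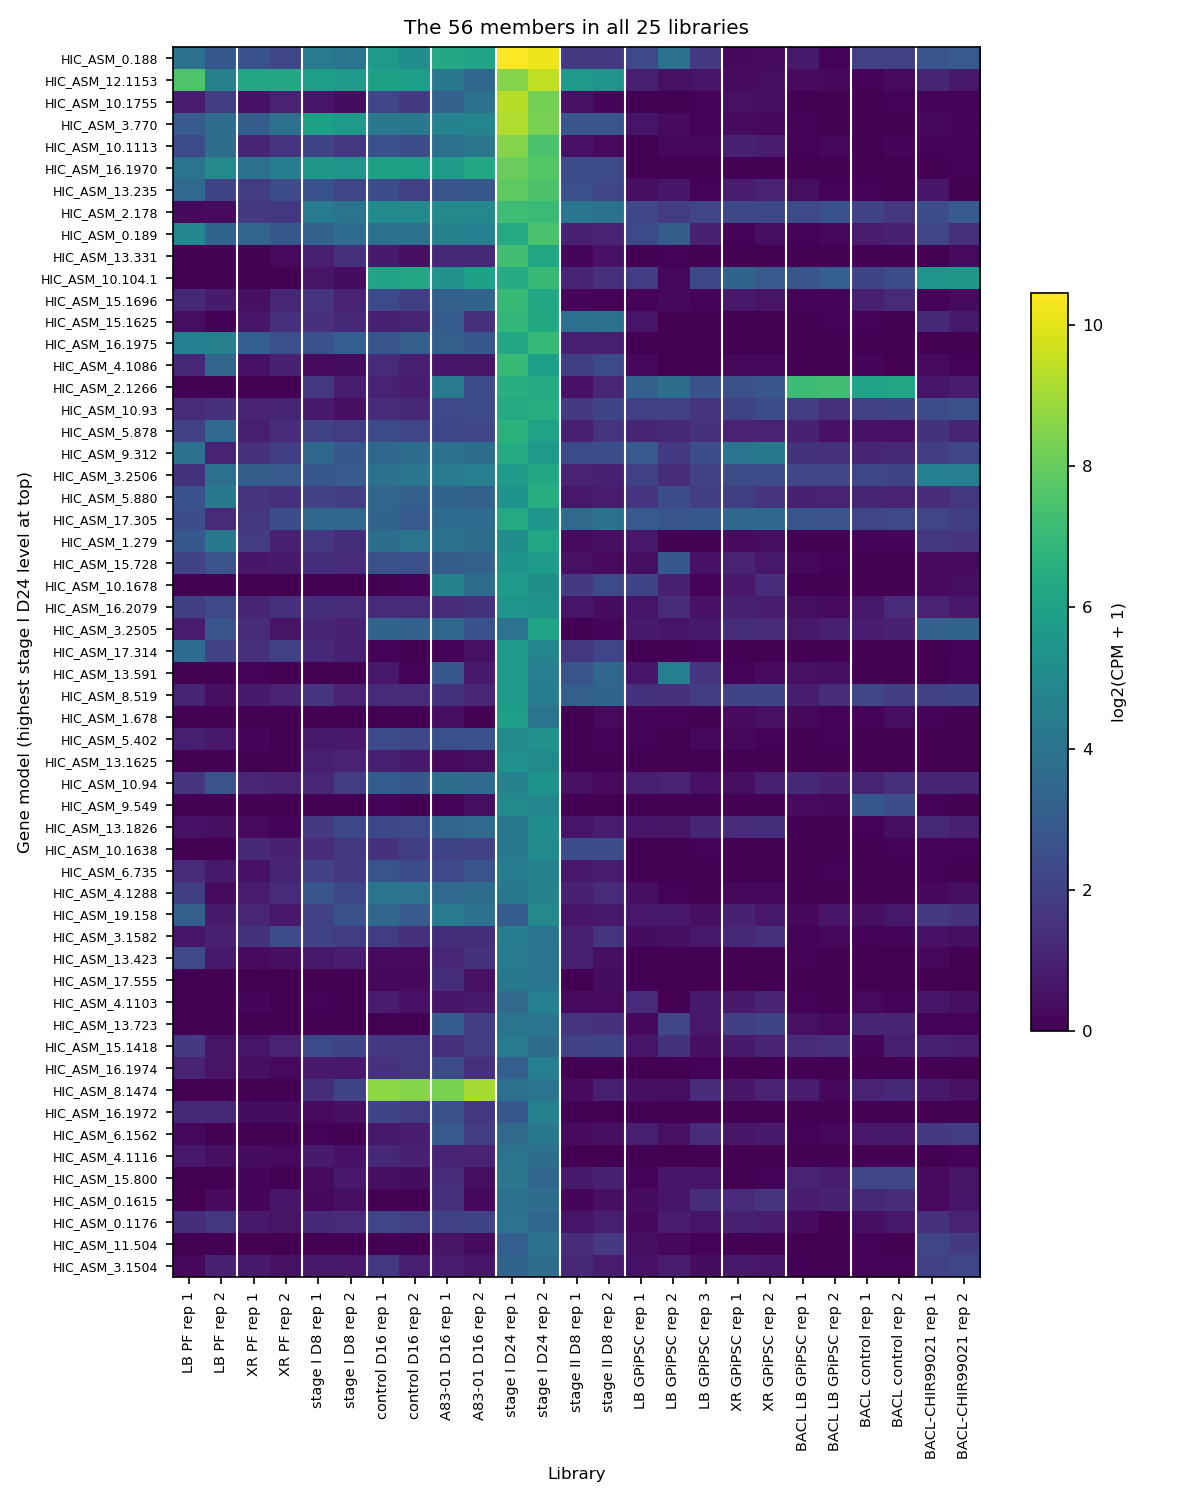
The 56 members (rows, ordered by their stage I D24 mean) in the 25 libraries (columns, groups divided by white lines), as log2(CPM + 1) in colour. The bright columns are the 2 day 24 libraries. Brighter than at day 24 are evm.model.HIC_ASM_8.1474 in the day 16 libraries and evm.model.HIC_ASM_2.1266 in the BACL LB GPiPSC libraries.

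The members differed in where they stood second. LB PF held the highest of the other 6 group means for 22 members, stage I D8 for 13, stage II D8 for 9, XR GPiPSC for 7, LB GPiPSC for 3 and XR PF for 1. Both PF groups and stage I D8 were under 1 CPM in 17 members, and all 6 other groups in 10. In 15 members at least one PF group was at 5 CPM or more, so these were also detected in fibroblasts. Both GPiPSC groups were under 1 CPM in 36 members, and 9 members had no counts in any of the 5 GPiPSC libraries.

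Just inside the 4-fold limit, evm.model.HIC_ASM_15.1418 stood at 15.5 CPM at day 24, 4.08 times its stage I D8 mean, and evm.model.HIC_ASM_9.312 at 68.3 CPM, 4.11 times its XR GPiPSC mean. Just outside, evm.model.HIC_ASM_8.546 stood at 13.6 CPM, 3.95 times its stage I D8 mean, and evm.model.HIC_ASM_4.1625 at 193 CPM, 3.92 times its stage II D8 mean. At the limit on level, evm.model.HIC_ASM_3.1504 and evm.model.HIC_ASM_11.504 were inside at 10.6 and 10.99 CPM, and evm.model.HIC_ASM_3.1130 and evm.model.HIC_ASM_15.615 outside at 9.77 and 9.65 CPM. Values on the 2 sides of each limit were close.

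Because the group mean decides membership, the 2 day 24 libraries were set side by side. The level was higher in replicate 1 for 31 members and in replicate 2 for 25. It agreed within 2-fold in 42 members (75.0%), against 70.6% of all models at 10 CPM or more at day 24, and the median fold between replicates was 1.63 against 1.55. Both day 24 libraries were at 10 CPM or more in 50 members. They were above all 13 libraries of the other 6 groups in 54 members, a pattern found in 3.43% of all models at 1 CPM or more in any group, from which nothing is read since the rule uses these libraries. In 38 members both day 24 libraries were at 4 times or more each of the 13 libraries.

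The widest gaps between replicates lay in both directions. Higher in replicate 1 were evm.model.HIC_ASM_1.678 (55.3 and 15.4 CPM) and evm.model.HIC_ASM_13.591 (54.2 and 21.3 CPM). The first was listed at 0 in all PF, stage I D8 and control D16 libraries and was at 0.381 CPM or less in each GPiPSC library. The second stood at 5.63 and 10.5 CPM at stage II D8 and at 0.517, 21.8 and 2.04 CPM in LB GPiPSC, so its LB GPiPSC mean came from replicate 2. Higher in replicate 2 were evm.model.HIC_ASM_3.2505 (14.9 and 67.0 CPM) and evm.model.HIC_ASM_19.158 (7.29 and 29.2 CPM). The last of these had 7.99 and 0.695 CPM in LB PF, and its day 24 replicate 1 lay below LB PF replicate 1.

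**Figure D3:**
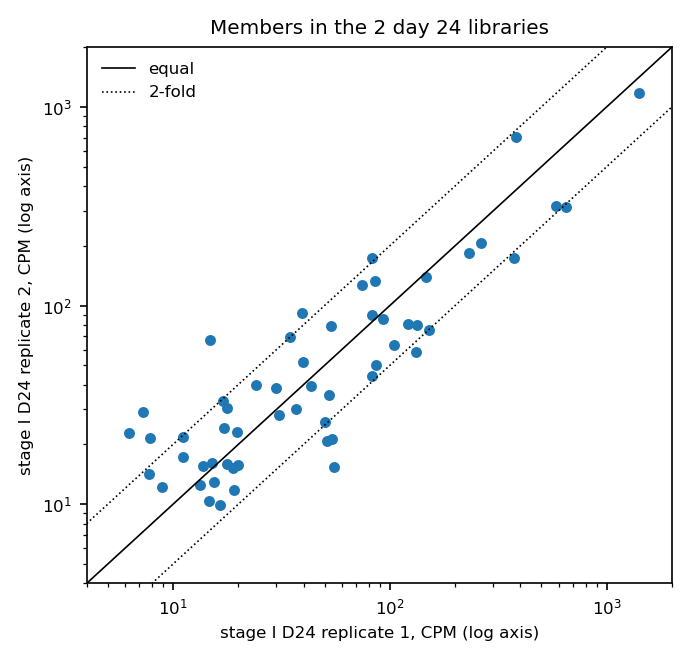
CPM of the 56 members in stage I D24 replicate 1 (horizontal) and replicate 2 (vertical), both on log axes, with lines for equal levels and for 2-fold differences. The 42 members between the dotted lines agree within 2-fold, and evm.model.HIC_ASM_3.2505 lies farthest from the line of equal levels.

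The set also depends on the scale of the values. With CPM scaled by TMM, which corrects for library composition, 57 models met the rule and 52 of them were among the 56. The TMM factors were 0.714 and 1.05 in the day 24 libraries and 0.622 and 0.695 at stage I D8, and a factor under 1 raises the scaled level. With the deposited TPM, which divides by effective length and sums to the same total in each library, 37 met it and 35 were shared. All 56 members had a higher mean TPM at day 24 than in each of the other 6 groups, and 48 stood at 4 times or more.

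Some members were neighbours on a scaffold. Members lay on 17 of the 21 scaffolds named HIC_ASM, with 7 each on HIC_ASM_10 (0.608% of its models) and HIC_ASM_13 (0.426%), where 0.244% of all models are members. The highest share was that of HIC_ASM_17, with 3 of its 490 models (0.612%), and scaffolds HIC_ASM_16 (0.297%) and HIC_ASM_3 (0.279%) lay near the share over all models with 5 members each. A member had another member within 2 model numbers on the same scaffold in 12 cases (21.4%), a count for which no matching share over all models was computed. These 12 formed 5 runs, 1 of 4 models and 4 of 2. Similar neighbours could share reads, and this was not tested. The median coding length of the members was 1174 bases, against 1338 for all models at 10 CPM or more at day 24, and 17.9% were under 600 bases, against 12.96%.

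The longest run lies on scaffold HIC_ASM_16 and holds evm.model.HIC_ASM_16.1970, evm.model.HIC_ASM_16.1972, evm.model.HIC_ASM_16.1974 and evm.model.HIC_ASM_16.1975, with coding lengths of 1305, 1713, 552 and 2133 bases. At day 24, evm.model.HIC_ASM_16.1970 stood at 264.5 and 206 CPM and evm.model.HIC_ASM_16.1975 at 74.1 and 127 CPM. Lower in the same libraries were evm.model.HIC_ASM_16.1972 at 6.24 and 22.9 CPM and evm.model.HIC_ASM_16.1974 at 7.82 and 21.7 CPM. These day 24 values ran in opposite directions between replicates, with evm.model.HIC_ASM_16.1970 higher in replicate 1 and the other 3 higher in replicate 2.

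All 4 models of that run were nearly absent from stem cells. Over the 5 GPiPSC and 6 BACL libraries, evm.model.HIC_ASM_16.1972 and evm.model.HIC_ASM_16.1975 were at 0 throughout, evm.model.HIC_ASM_16.1970 was above 0 only in BACL-CHIR99021 replicate 2 (0.0755 CPM) and evm.model.HIC_ASM_16.1974 only in LB GPiPSC replicate 3 (0.0849 CPM). On the fibroblast side they differed in level. In LB PF, evm.model.HIC_ASM_16.1970 stood at 15.3 and 29.4 CPM, evm.model.HIC_ASM_16.1975 at 22.0 and 22.4, evm.model.HIC_ASM_16.1972 at 1.30 and 1.27 and evm.model.HIC_ASM_16.1974 at 1.06 and 0.464. Of the models next to them, evm.model.HIC_ASM_16.1971 had 4.05 CPM at day 24 and evm.model.HIC_ASM_16.1976 had 10.06 CPM, and the latter was highest at stage I D8 among the 6 other groups.

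The pair evm.model.HIC_ASM_0.188 and evm.model.HIC_ASM_0.189 holds the highest member and its neighbour. The neighbour stood at 82.8 and 173 CPM at day 24, at 28.1 and 9.27 in LB PF and at 0.962 and 1.01 at stage II D8. The pair evm.model.HIC_ASM_10.93 and evm.model.HIC_ASM_10.94 (3090 and 3033 bases) stood at 82.6 and 89.97 CPM and at 24.1 and 40.0 CPM at day 24. The pair on HIC_ASM_5 (evm.model.HIC_ASM_5.878 and evm.model.HIC_ASM_5.880) went in opposite directions between the day 24 libraries, at 104 and 63.5 CPM and at 39.3 and 92.0 CPM.

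The day 16 libraries give levels that the choice of members did not use. In control D16 the members had a median of 3.06 CPM, and their level relative to day 24 had a median of 5.85%. It was under 10% in 31 members and under 25% in 49. The 7 members at 25% or more became 14 on the TPM scale. At 50% or more were 3 members, namely evm.model.HIC_ASM_8.1474, evm.model.HIC_ASM_10.104.1 and evm.model.HIC_ASM_4.1288 (72.6%). In most members the day 16 control thus stood far below day 24. The choice of members by high day 24 levels sets this in part. No share over all models was computed for it.

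Against stage I D8, both control D16 libraries were above both day 8 libraries in 33 members (58.9%), where 55.7% of all models at 1 CPM or more in any group did so. The reverse held in 9 members (16.1%), against 26.7% of all models. The day 8 levels served to choose the members, so nothing is read from these shares. Against day 24, both day 24 libraries were above both control D16 libraries in 54 members (37.7% of all models) and below both in 1 (36.7% of all models), a comparison that the choice of members sets in part.

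That 1 member, evm.model.HIC_ASM_8.1474, goes against the description of a day 24 peak. It was listed at 0 in all 4 PF libraries and stood at 1.56 and 3.39 CPM at stage I D8, 405.5 and 375 in control D16, 324 and 527 in A83-01 D16, 13.7 and 15.7 at day 24, then 0.222 and 0.862 in stage II D8. Its highest levels were thus those of day 16, and its day 24 level was the lower one. The member with the next highest control D16 level, evm.model.HIC_ASM_10.104.1, differed less between the days, at 66.9 and 75.9 CPM in control D16, 38.01 and 62.1 in A83-01 D16 and 85.6 and 133 at day 24. It was at 0 in all PF libraries, at 0.467 and 0.288 CPM at stage I D8 and at 1.11 and 1.72 at stage II D8.

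Over all 12 groups, 54 of the 56 members had their highest mean at day 24, the exceptions being evm.model.HIC_ASM_8.1474 and evm.model.HIC_ASM_2.1266. Both day 24 libraries were above all 23 other libraries in 52 members, a pattern found in 2.26% of all models at 1 CPM or more in any group. Nothing is read from these counts or this share either. Both day 24 libraries and 13 of the 23 others served to choose the members.

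**Figure D4:**
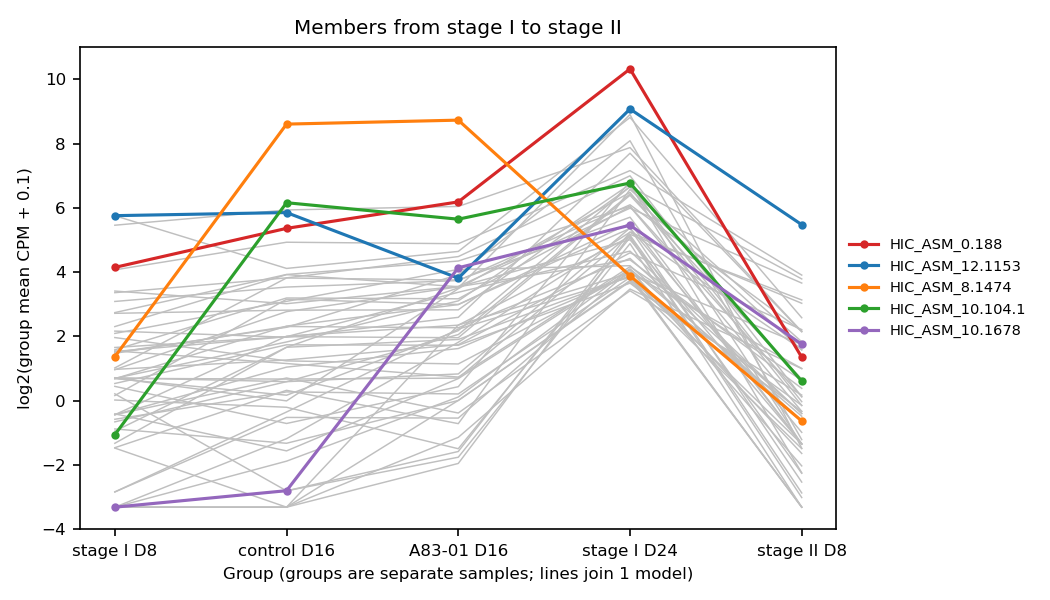
Group mean level of each member as log2(mean CPM + 0.1) at stage I D8, control D16, A83-01 D16, stage I D24 and stage II D8, with 1 line per model and 5 models in colour. Most lines peak at stage I D24, while evm.model.HIC_ASM_8.1474 (orange) peaks in the day 16 groups and evm.model.HIC_ASM_10.1678 (purple) is present in A83-01 D16 but nearly absent from control D16.

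To see whether blocking the TGF-beta receptor moved these models at day 16, A83-01 D16 was compared with control D16. Neither group entered the choice of members. All 56 members passed the filter on low counts, but it covers all 12 groups, so their day 24 levels let them pass. Some had few counts in the libraries compared, and such members can hardly be called. For example, evm.model.HIC_ASM_1.678 had 4 counts in A83-01 D16 replicate 1 and 0 in the other libraries compared. The shares of members below include such members. By edgeR's quasi-likelihood test with Benjamini-Hochberg adjustment over 17225 models, 5 members (8.93%) were higher with A83-01 at an adjusted p under 0.05, against 4.19% of all models. A single member (1.79%) was lower, against 2.04%, and 50 were not called. Called either way were 10.7% of the members and 6.22% of all models. The median log2 fold change was 0.40 over the members and 0.04 over all models. Above 0 were 36 members and below 0 were 20, where 53.5% of all models were above 0. In control D16, 16 members stood under 1 CPM, where a few counts can set the sign and size of a change. No general shift of the members is therefore read from these values. At an unadjusted p under 0.05 in the same test, 14 members were higher and 3 lower, together 17 of 56. Of all models, 16.01% were under it in either direction, and no share by direction was computed. By levels alone, both A83-01 libraries were above both controls in 28 members (50%), against 41.7% of all models, and below both in 7 (12.5%), against 17.7%. The members are named here after their values were seen.

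Among the 5, evm.model.HIC_ASM_2.1266 stood at 1.01 and 0.770 CPM in control D16 and at 18.1 and 4.02 CPM in A83-01 D16. Both A83-01 libraries were above both controls, by a log2 fold change of 3.42 ± 0.67 (SE; edgeR adjusted p = 0.00459), and they differed widely from each other. The model evm.model.HIC_ASM_10.1678 had 0 counts and 1 count in the control libraries and 22.9 and 11.99 CPM with A83-01. The ratio of summed levels was 410 with an exact 95% interval of 73.2 to 16220, which covers counting error only (edgeR adjusted p = 0.00172). It had no counts in the PF and stage I D8 libraries either, and stood at 52.3 and 35.5 CPM at day 24.

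The model evm.model.HIC_ASM_13.723 repeated this pattern at a lower level. It had no counts in PF, stage I D8 and control D16, 7.30 and 2.71 CPM in A83-01 D16 and 15.1 and 16.04 CPM at day 24. With a floor of 3 counts per control library it was at least 19.6-fold higher with A83-01 (edgeR adjusted p = 0.00454). The model evm.model.HIC_ASM_6.1562 stood at 0.592 and 0.770 CPM in control D16, 6.67 and 2.48 in A83-01 D16 and 11.1 and 17.3 at day 24 (log2 fold change 2.55 ± 0.56 SE, edgeR adjusted p = 0.00946). The last, evm.model.HIC_ASM_10.93, rose from 1.52 and 1.28 to 3.93 and 4.18 CPM (1.39 ± 0.37 SE, edgeR adjusted p = 0.0283), far below its day 24 level of 82.6 and 89.97 CPM.

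In 4 of these 5 models A83-01 replicate 1 was the higher of the 2, and in evm.model.HIC_ASM_10.93 replicate 2. Without A83-01 replicate 1, 2 members remained called higher, and without either control replicate 1 member, evm.model.HIC_ASM_10.1678. In that model the adjusted p ran from 5.84e-06 to 0.0416 over the 11 alternatives tried.

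The member that was lower, evm.model.HIC_ASM_12.1153, stood at 60.8 and 54.7 CPM in control D16 and at 17.3 and 10.6 CPM in A83-01 D16. The groups did not overlap, and the log2 fold change was -2.21 ± 0.55 (SE; edgeR adjusted p = 0.0190). At day 24, whose high level served to choose it, the same model stood at 380.3 and 701 CPM. Leaving out any of the 4 libraries ended the call while the log2 fold change stayed between -2.53 and -1.98, with adjusted p-values of 0.108 and 0.0869 without control replicates 1 and 2 and 0.103 and 0.167 without A83-01 replicates 1 and 2.

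Most of the strongest day 24 members were not called. The highest, evm.model.HIC_ASM_0.188, stood at 47.9 and 34.1 CPM in control D16 and 77.9 and 67.6 in A83-01 D16 (log2 fold change 0.68 ± 0.54 SE, edgeR adjusted p = 0.677), and evm.model.HIC_ASM_10.1755 at 3.72 and 2.39 against 8.64 and 13.9 CPM (1.76 ± 0.56 SE, edgeR adjusted p = 0.0726). In both models the libraries of the 2 groups did not overlap, but the difference did not pass the test.

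Members without early expression differed in their day 16 levels. In 9 members no PF or stage I D8 library had more than 3 counts. Of these, 6 had at most 3 counts in both control D16 libraries as well, and 3 of the 6 had more than 3 counts in both A83-01 libraries. No matching share over all models was computed, so nothing is read from these counts. The 6 include evm.model.HIC_ASM_10.1678, evm.model.HIC_ASM_13.723 and evm.model.HIC_ASM_17.555, described above, as well as evm.model.HIC_ASM_1.678 and evm.model.HIC_ASM_9.549, which had at most 0.314 CPM in any A83-01 library. The sixth, evm.model.HIC_ASM_11.504, had 0.471 and 0.232 CPM there and 7.74 and 14.2 CPM at day 24.

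In the BACL groups the members had median levels of 0.121 CPM (BACL LB GPiPSC), 0.146 CPM (BACL control) and 0.370 CPM (BACL-CHIR99021). All models had medians of 3.19, 3.14 and 4.70 CPM there. Of the 56, 28 were under 1 CPM in all 3 BACL groups and 3 were at 10 CPM or more in at least one. The highest over these groups was evm.model.HIC_ASM_2.1266, at 145 and 152 CPM in BACL LB GPiPSC and 64.8 and 72.1 CPM in BACL control, against 92.9 and 85.8 CPM at day 24. In LB GPiPSC it stood at 8.19, 12.7 and 5.01 CPM and in XR GPiPSC at 5.05 and 5.95 CPM. For this model BACL LB GPiPSC was above day 24, so its day 24 peak held within the 7 groups of the rule but not over all 12 groups. The next, evm.model.HIC_ASM_10.104.1, stood at 5.95 and 7.70 CPM in BACL LB GPiPSC, 3.42 and 4.39 in BACL control and 42.0 and 45.4 in BACL-CHIR99021.

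BACL-CHIR99021 was compared with BACL control, again with groups outside the rule. Since the title does not say whether CHIR99021 was added or left out, higher and lower mean in BACL-CHIR99021 relative to BACL control. No effect of GSK-3 inhibition is read from the direction. By edgeR's quasi-likelihood test, 9 members (16.1%) were higher in BACL-CHIR99021, against 11.7% of all models, and 4 (7.14%) were lower, against 4.43%. The other 43 were not called, among them 6 without counts in the 4 libraries. The median log2 fold change was 1.32 over the members and 0.00 over all models. The members' median levels, 0.146 CPM in BACL control and 0.370 CPM in BACL-CHIR99021, lay near 3 counts per library. At such levels a few counts give a large fold change. For example, evm.model.HIC_ASM_3.770 had 0 counts in both control libraries, 2 in each BACL-CHIR99021 library and a log2 fold change of 3.78. Nothing is therefore read from the members' median. Both BACL-CHIR99021 libraries were above both controls in 27 members (48.2%), against 47.3% of all models, and below both in 7 (12.5%), against 32%.

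The members that were higher at 10 CPM or more were evm.model.HIC_ASM_10.104.1, by a log2 fold change of 3.35 ± 0.61 (SE; edgeR adjusted p = 0.000955), and evm.model.HIC_ASM_3.2506. The latter stood at 3.85 and 3.37 CPM in BACL control and 21.9 and 21.2 CPM in BACL-CHIR99021 (2.44 ± 0.52 SE, edgeR adjusted p = 0.00263). Its neighbour evm.model.HIC_ASM_3.2505 rose with it, from 0.727 and 0.952 to 8.70 and 9.06 CPM (3.25 ± 0.72 SE, edgeR adjusted p = 0.00350). At day 24 these neighbours stood at 53.5 and 78.6 CPM and at 14.9 and 67.0 CPM, both higher in replicate 2.

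The other 6 that were higher remained at low levels. In BACL-CHIR99021, evm.model.HIC_ASM_3.1504 stood at 3.01 and 3.62 CPM and evm.model.HIC_ASM_11.504 at 3.50 and 2.42 CPM, where the BACL control libraries together held 2 counts and 1 count. The ratios were 45.6 (exact 95% interval 12.2 to 383) and 80.5 (14.0 to 3221). These 2 are the members with the lowest day 24 levels. The remaining 4 were evm.model.HIC_ASM_2.178, evm.model.HIC_ASM_1.279, evm.model.HIC_ASM_13.1826 and evm.model.HIC_ASM_6.1562, at 0.831 to 7.10 CPM in BACL-CHIR99021. The last was also higher with A83-01 at day 16.

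A large decrease was that of evm.model.HIC_ASM_2.1266, to 0.488 and 0.755 CPM in BACL-CHIR99021, a log2 fold change of -6.88 ± 0.73 (SE; edgeR adjusted p = 5.69e-06). This model was higher with A83-01 at day 16, and both values come from separate libraries. The model evm.model.HIC_ASM_9.549, without counts in PF, stage I D8, stage II D8 and GPiPSC, stood at 6.18 and 4.69 CPM in BACL control. In BACL-CHIR99021 it had 1 count in all. Its control level was 139 times that in BACL-CHIR99021 (exact 95% interval 24.5 to 5521; edgeR adjusted p = 0.000115). These 2 decreases were of similar size, and which was the larger changed with the method. The other decreases were those of evm.model.HIC_ASM_15.1696, from 0.872 and 1.39 to 0.0813 and 0.227 CPM, and evm.model.HIC_ASM_15.800, from 3.49 and 3.66 to 0.244 and 0.453 CPM (edgeR adjusted p = 0.0132 and 0.00331).

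Without BACL control replicate 1 or 2, 4 and 5 members were called higher, and without BACL-CHIR99021 replicate 1, 2 were called lower. The calls of evm.model.HIC_ASM_10.104.1, evm.model.HIC_ASM_3.1504, evm.model.HIC_ASM_11.504, evm.model.HIC_ASM_2.1266 and evm.model.HIC_ASM_9.549 held in all 11 alternatives. For evm.model.HIC_ASM_2.178 the call was lost in 6 of the 11, and its log2 fold change of 0.97 ± 0.31 (SE) was the smallest of the 13.

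**Figure D5:**
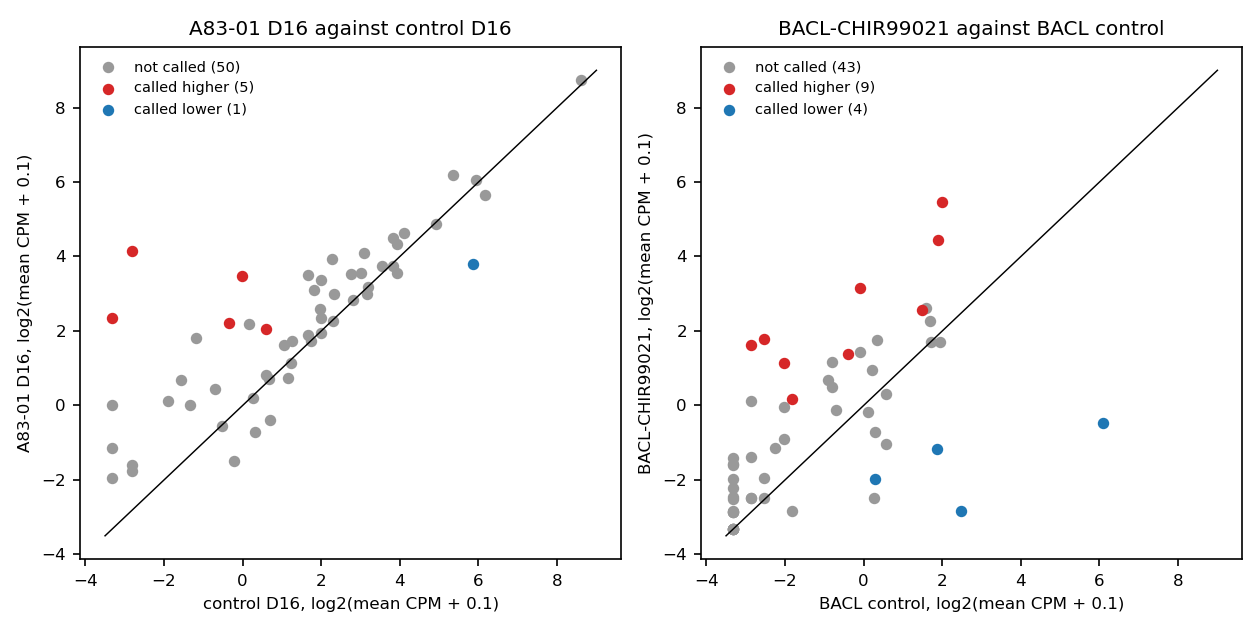
Group means of the 56 members as log2(mean CPM + 0.1), for A83-01 D16 against control D16 (left) and BACL-CHIR99021 against BACL control (right), with the line of equal levels. Red members were called higher (5 left, 9 right), blue members lower (1 left, 4 right) and grey members were not called.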

How the data were processed

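RNA of 25 giant panda libraries was sequenced after extraction with a column kit and NEBNext Ultra library preparation, per the labels' protocols. As the tool, kallisto is named in the submitters' processing notes. Not given in the sources used here are its version, the index and the build. Per the file headers, the deposited tables hold a TPM value and an estimated count for each gene model. The deposited TPM is scaled by the authors' tool to effective length and library total. Of all model lengths 91.6% are multiples of 3, so lengths are called coding lengths.

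From these, CPM was computed with column sums as the divisor. For tests, the deposited estimated counts were rounded, and all 25 libraries in 12 groups entered 1 fit with edgeR 4.0.16 in R 4.3.3 (filterByExpr, TMM, robust quasi-likelihood F test, Benjamini-Hochberg, threshold 0.05). SEs derive from the F statistic. The test was checked on simulated data. Groups and replicate numbers come from titles. Alternatives were RLE, DESeq2 1.42.0, limma 3.58.1 on log2(TPM + 1) and log2(TPM + 0.1), a replicate block, only the libraries compared, no filter, other limits of the rule and each library left out. A group left with 1 library is assumed to vary like the others.

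Members, lists and the rule for named models were chosen with earlier results of these data known. That rule takes extremes of level, ratio and replicate difference, members at the limits, the longest run of neighbours, and per comparison and direction the 2 largest called changes at 10 CPM or more with over 3 counts in each library. Called members outside it are named because they are few, and evm.model.HIC_ASM_0.188 and other neighbours as examples chosen after their values were seen. Libraries hold 8627983 to 14890260 counts. Intervals and floors cover counting error only.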

Additional observations from a re-analysis of the deposited data

How the results depend on the processing

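The number of members was 37 with TPM, 117 at a limit of 2 times and 33 at 8 times, against 56. Leaving out each library gave 54 to 60 members, and 38 of the 56 remained in all of these sets. Replicates 1 alone gave 54 members and replicates 2 alone 63, with 38 of the 56 in both. Members at 25% or more of their day 24 level in control D16 numbered 14 with TPM and 3 at 50%, against 7, and 6 to 10 with libraries left out.

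Members called higher with A83-01 numbered 10 with only the 4 libraries in the fit and 9 with limma-trend on log2(TPM + 1), against 5, and 1 to 5 with a library left out. The lower count of 1 became 0 in each of the 4 fits without a library, where edgeR at an unadjusted p under 0.05 still gave 1 or 2 members. With all libraries DESeq2 and limma-trend gave 1 lower member each, but limma-trend did not call evm.model.HIC_ASM_12.1153. Members called in BACL-CHIR99021 against BACL control numbered 16 higher and 7 lower with only the 4 libraries, against 9 and 4. These counts fell or stayed the same with a library left out. The share of all models called is not given for any of the alternatives. A change in the members' counts therefore cannot be told from a change over all models. The cause of these changes was not tested. No called member changed sign in any alternative.

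With the replicate number as a block, 7 members were higher and 1 lower with A83-01, and 9 higher and 4 lower in BACL-CHIR99021. Same-numbered libraries share only a number, and their deviations correlated at -0.00453 and 0.0096 across models. At these depths a level under about 0.348 CPM rests on 3 counts or fewer.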
